A study of Homo sapiens with 11 samples.

Results

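The genes described here are those of MHC class I antigen presentation: the heavy chains HLA-B, HLA-C and HLA-E, the light chain B2M, the peptide transporter subunits TAP1 and TAP2, the proteasome subunits PSMB8 and PSMB9, and the transcriptional activator NLRC5. They were chosen by name, with earlier results of these data known. Of these 9 genes, 5 (HLA-B, HLA-C, B2M, TAP2 and NLRC5) could be matched to 9 rows of a count table of 19990 rows. HLA-E, TAP1, PSMB8 and PSMB9 were not analysed here. The cells were cardiomyocytes derived at passage 63 from WTC11, a widely used line of human induced pluripotent cells, by Wnt activation with CHIR99021 and later Wnt inhibition with IWP2. Wells of a single differentiation were kept in RPMI1640 medium with B27 and insulin and collected for poly(A) RNA sequencing at Day 30 (4 wells), Day 60 (3 wells) and Day 113 (4 wells). No genotype, drug or cytokine distinguished the groups, which differed by time in culture alone as far as the labels state.

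MHC class I molecules display peptides from inside the cell to CD8 T cells and are read by natural killer cells. The proteasome cuts proteins into peptides, the TAP1 and TAP2 transporter carries them into the endoplasmic reticulum, chaperones and aminopeptidases load and trim them, and a heavy chain folded with B2M carries them to the surface. NLRC5 assembles with RFX, CREB/ATF and NF-Y factors on a composite promoter element of the class I heavy chain and B2M genes. Interferons raise the whole pathway through STAT and IRF factors. Cardiomyocytes and pluripotent stem cells are both known for low class I expression.

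The promoters of the 4 measured members with an entry in the RefSeq table (GRCh38.p14) are printed to show the regulatory letters they hold. Each run is 250 bases that end just before the annotated start of the gene, in the gene's own direction. They are reference sequences and not the alleles of WTC11. Capitals mark matches, on either strand, to an interferon response pair (the run GAAA and a second copy of it after any 2 bases), a class I interferon response motif (1 guanine and 2 adenines, any 2 bases, then 1 guanine, 3 adenines and 1 cytosine), a CCAAT box (CCAAT) and a cyclic AMP response core (TGACG), which were picked after the sequences had been read.
HLA-B, chr6:31357180-31357429, minus strand: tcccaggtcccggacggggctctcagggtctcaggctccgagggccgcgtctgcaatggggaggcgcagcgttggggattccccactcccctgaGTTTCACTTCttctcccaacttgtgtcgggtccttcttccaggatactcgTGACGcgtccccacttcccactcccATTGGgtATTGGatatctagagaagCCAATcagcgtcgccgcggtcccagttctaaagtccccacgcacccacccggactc
HLA-C, chr6:31272093-31272342, minus strand: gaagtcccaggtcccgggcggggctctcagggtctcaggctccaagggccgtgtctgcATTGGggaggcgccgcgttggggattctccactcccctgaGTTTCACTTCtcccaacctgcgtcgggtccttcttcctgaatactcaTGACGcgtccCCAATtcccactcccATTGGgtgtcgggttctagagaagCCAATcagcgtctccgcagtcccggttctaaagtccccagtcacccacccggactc
B2M, chr15:44711267-44711516, plus strand: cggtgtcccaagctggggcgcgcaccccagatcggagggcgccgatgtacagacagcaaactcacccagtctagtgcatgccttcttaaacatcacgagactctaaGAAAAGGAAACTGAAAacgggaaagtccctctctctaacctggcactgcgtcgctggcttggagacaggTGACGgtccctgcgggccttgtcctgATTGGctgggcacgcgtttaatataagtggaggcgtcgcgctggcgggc
TAP2, chr6:32838740-32838989, minus strand: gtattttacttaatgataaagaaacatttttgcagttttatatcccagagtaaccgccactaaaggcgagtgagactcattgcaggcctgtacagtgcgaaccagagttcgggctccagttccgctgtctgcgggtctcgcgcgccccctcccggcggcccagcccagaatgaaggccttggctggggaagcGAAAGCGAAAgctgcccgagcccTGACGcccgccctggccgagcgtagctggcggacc

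The TGACG core was found in all 4 windows, at 106 to 102 bases before the start of HLA-B, 105 to 101 before that of HLA-C, 75 to 71 before that of B2M and 35 to 31 before that of TAP2. It occurs in 21.2% of the 35116 promoter windows of the same length. HLA-B and HLA-C each hold the class I interferon response motif on the reverse strand, at 156 to 147 and 152 to 143 bases before the start, where the letters on the printed strand are GTTTCACTTC in both genes, a motif found in 1.23% of windows. B2M holds 2 overlapping matches to the interferon response pair between 144 and 129 bases before its start, GAAAAGGAAA and GAAACTGAAA, and TAP2 holds 1 match, GAAAGCGAAA, at 58 to 49. That motif is found in 3.02% of windows. A CCAAT box, found in 32.0% of windows, is present in the windows of HLA-B, HLA-C and B2M, and these letters are not in the TAP2 window. A match is a description of the letters and was not tied to binding by any measurement.

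The form in which the table holds these genes limits what their counts mean. B2M (chr15:44711517-44718145) and NLRC5 (chr16:56989557-57083520) have rows under their plain symbols. HLA-B (chr6:31353875-31357179) was matched through 4 rows whose symbol ends in a number, HLA-C (chr6:31268749-31272092) and TAP2 (chr6:32821831-32838739) through 1 such row each, and B2M through 1 more. Neither the table nor the labels say what the number marks. It could mark further copies of a gene in the annotation, such as those on alternate sequences of the MHC, which was not tested. The positions given here are those of the gene in the primary assembly and may not be those of a numbered row. Numbered rows make up 159 rows and 0.0899% of all counts. The HLA and TAP2 values below therefore count only the reads assigned to those rows. Reads shared among near-identical class I genes make them uncertain, and exons of HLA-B and HLA-C overlap each other in GENCODE v29. B2M and NLRC5 overlap no other annotated exon.

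Library totals ran from 24.1 M to 34.5 M counts. All 12 cardiomyocyte markers examined were measured, and together they held 34300 to 46500 CPM (counts scaled to a library of 1000000) at Day 30, 44300 to 49900 at Day 60 and 38400 to 43600 at Day 113. By edgeR at an adjusted p under 0.05, 5 of these 12 were higher and 2 lower at Day 113 than at Day 30. The sum does not show such opposite changes. The wells come from a single differentiation, so the p-values cover only the spread between wells. Collection and day coincide and cannot be told apart. In bulk RNA, fewer cells of a type and less RNA per cell cannot be told apart either.

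All 7 member rows that passed the test between Day 30 and Day 113 were higher at Day 113. They were the rows of B2M, HLA-C, TAP2 and NLRC5 and 3 of the 4 HLA-B rows. The 2 others, HLA-B_2 and the second B2M row, did not pass. In that comparison 34.5% of all 19990 genes were called by the edgeR quasi-likelihood test at an adjusted p under 0.05, and 17.3% were called higher. The member rows had a median log2 fold change of 2.64, against -0.02 over all genes. Of the 9 rows, 4 are of HLA-B and 2 of B2M, so row counts and this median count these genes more than once. With the rows of each gene summed, HLA-B, HLA-C, B2M, TAP2 and NLRC5 were each called higher, where 17.4% of genes were. From Day 60 to Day 113 also 7 of 9 rows were called, all higher, where 24.0% of all genes were called and 12.9% were higher. Without Day 60 well 1, the count of member rows is 4, and that of all genes called falls from 4790 to 3317. From Day 30 to Day 60 edgeR called 0 of 9 rows, where 10.3% of all genes were called, 4.39% higher and 5.91% lower, and limma-voom and DESeq2 also called 0. A single row, B2M, had an unadjusted p under 0.05 there. Every later well lay above every earlier well in 2 of 9 member rows from Day 30 to Day 60, in 6 of 9 from Day 60 to Day 113 and in 6 of 9 from Day 30 to Day 113, against 10.7%, 16.2% and 17.1% of all genes.

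**Figure D1:**
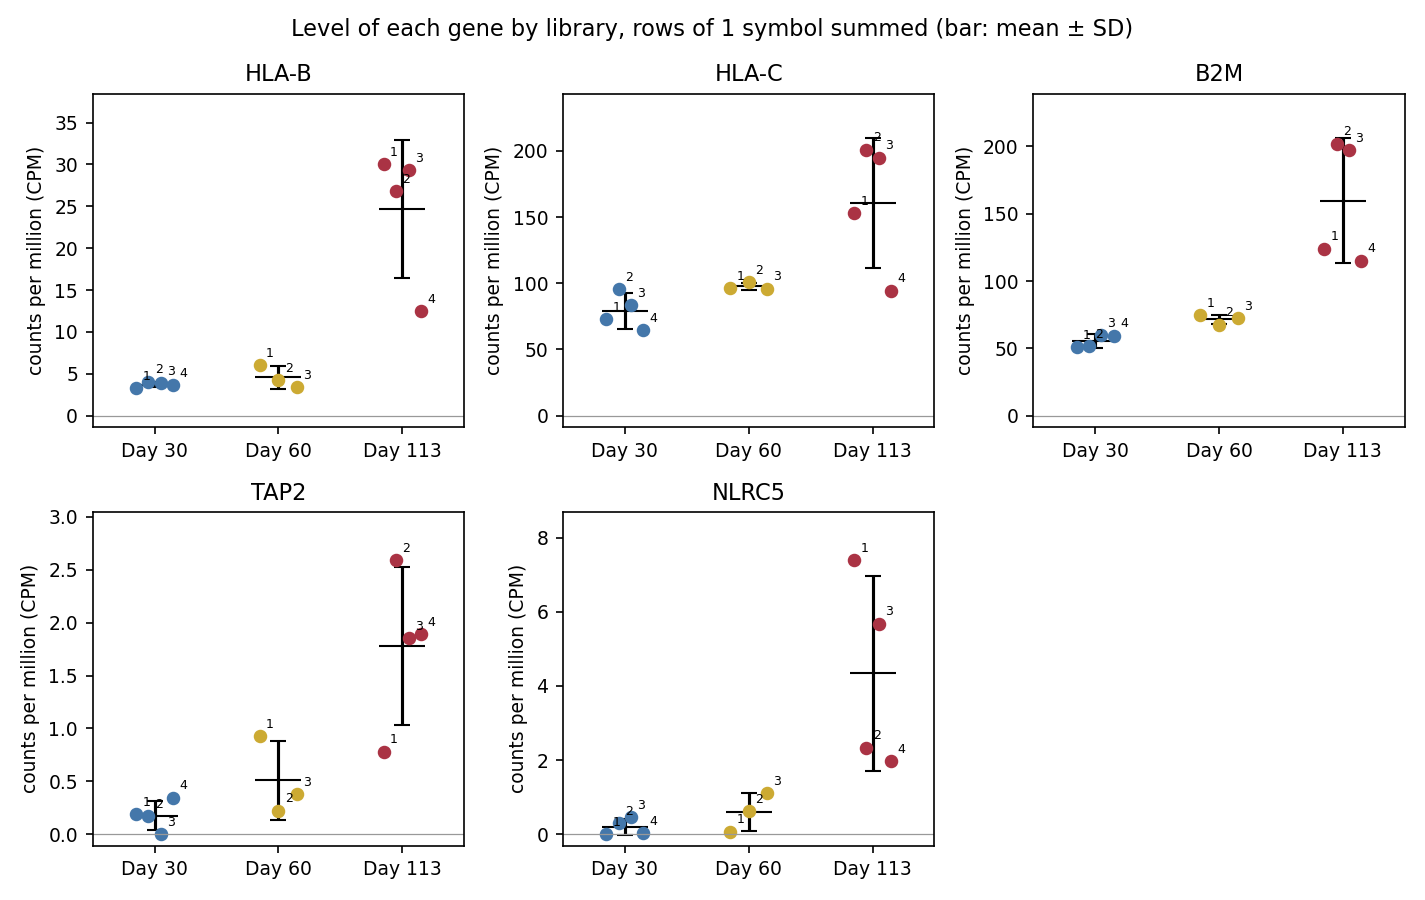
CPM (y axes, linear) of the 5 measured members at each day (x axis). Each point is 1 well with its number, and the bars are the mean ± SD of 4, 3 and 4 wells. All Day 113 wells lie above the Day 30 wells for HLA-B, B2M, TAP2 and NLRC5, while HLA-C well 4 at Day 113, at 94.5 CPM, lies just under the highest Day 30 well, at 95.3 CPM.

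HLA-B, a classical heavy chain that presents peptides to T cells, had a larger log2 fold change from either earlier day to Day 113 than HLA-C or B2M, from a lower level in CPM. With its 4 rows summed, an alternative added after the table had been seen, it was measured at 3.32, 4.04, 3.88 and 3.64 CPM in Day 30 wells 1 to 4, at 6.00, 4.27 and 3.41 in the Day 60 wells, and at 30.0, 26.8, 29.3 and 12.5 in the Day 113 wells. Day 30 and Day 60 overlapped, and all Day 113 wells lay above both. The sum was 2.73 ± 0.26 log2 units higher at Day 113 than at Day 30 (SE, adjusted p = 1.1e-06) and 2.43 ± 0.28 higher than at Day 60 (adjusted p = 3.2e-05). From Day 30 to Day 60 its log2 fold change was 0.29 ± 0.27 (adjusted p = 0.60). The change after Day 60 exceeded the change before it by 2.14 ± 0.50 log2 units (adjusted p = 0.015), where 9.41% of genes were called for that difference with rows summed, 5.01% higher. With rows summed, 10.4% of genes were called from Day 30 to Day 60 (4.41% higher), 24.1% from Day 60 to Day 113 (12.9% higher) and 34.6% from Day 30 to Day 113 (17.4% higher).

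The HLA-B rows are unequal in depth. HLA-B_4 holds 57.5% of the counts, HLA-B_3 28.5%, HLA-B_1 8.33% and HLA-B_2 5.67%. Between Day 30 and Day 113, HLA-B_4 rose by 2.64 ± 0.32 log2 units (adjusted p = 1.1e-05), HLA-B_3 by 3.10 ± 0.50 (adjusted p = 2.0e-04) and HLA-B_1 by 2.70 ± 0.69 (adjusted p = 0.0063). HLA-B_2 had a log2 fold change of 2.01 ± 0.88 (adjusted p = 0.092) in that comparison and rose by 3.87 ± 1.11 from Day 60 (adjusted p = 0.019), a call lost without Day 60 well 1, Day 60 well 3 or Day 113 well 3. Taken as separate rows, 0 of the 9 member rows passed the test of a difference between the intervals in edgeR, against 9.34% of all genes, 4.97% higher and 4.38% lower. In that test 4 rows had an unadjusted p under 0.05, DESeq2 called 2 and limma-voom called 0.

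HLA-C, a heavy chain that presents peptides and is a ligand of natural killer cell receptors, changed less. It was measured at 72.8, 95.3, 83.4 and 64.7 CPM in the Day 30 wells, at 96.4, 101 and 96.0 in the Day 60 wells and at 153, 201, 195 and 94.5 in the Day 113 wells. Well 4 of Day 113 lay within the range of the earlier days, and the others lay above it. HLA-C rose by 1.03 ± 0.18 log2 units from Day 30 to Day 113 (adjusted p = 4.5e-04). From Day 60 to Day 113 it rose by 0.72 ± 0.20 (adjusted p = 0.016), but not past the threshold without Day 60 well 1 (adjusted p = 0.054) or Day 60 well 3 (adjusted p = 0.056). All 3 Day 60 wells lay above the Day 30 wells, with a log2 fold change of 0.31 ± 0.20 (adjusted p = 0.39).

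Of 6 rows of class I-like heavy chains outside the 9 genes, 2 were higher at Day 113 than at Day 30 and 0 lower, with a median log2 fold change of 0.21. CD1D, which presents lipids, rose by 1.92 ± 0.40 (adjusted p = 0.0014), and FCGRT, the neonatal Fc receptor heavy chain, by 0.45 ± 0.12 (adjusted p = 0.0089). HFE, which acts in iron sensing, had a log2 fold change of -0.33 ± 0.32 (adjusted p = 0.47).

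B2M, the light chain that pairs with HLA-B and HLA-C, rose in every comparison that ended at Day 113. It was measured at 50.9, 51.5, 59.9 and 59.2 CPM in the Day 30 wells, at 74.3, 67.2 and 72.5 in the Day 60 wells and at 124, 201, 197 and 115 in the Day 113 wells. The 3 days did not overlap. B2M rose by 1.52 ± 0.16 log2 units from Day 30 to Day 113 (adjusted p = 3.3e-06) and by 1.16 ± 0.17 from Day 60 (adjusted p = 2.6e-04), and both calls held under every alternative tried. From Day 30 to Day 60 its log2 fold change was 0.36 ± 0.17 (adjusted p = 0.21), which passed only when Day 113 was left out of the fit (adjusted p = 0.011). Per kilobase of annotated exon, its level was 9.11 ± 0.797 CPM at Day 30 (SD, n = 4), 11.7 ± 0.608 at Day 60 (n = 3) and 26.1 ± 7.59 at Day 113 (n = 4). All annotated exons were merged for this length, 6079 bases, which may exceed that of the expressed transcript. The B2M level should therefore not be set beside those of other genes. The numbered B2M row held 0.0329 to 0.750 CPM and was called in no comparison.

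**Figure D2:**
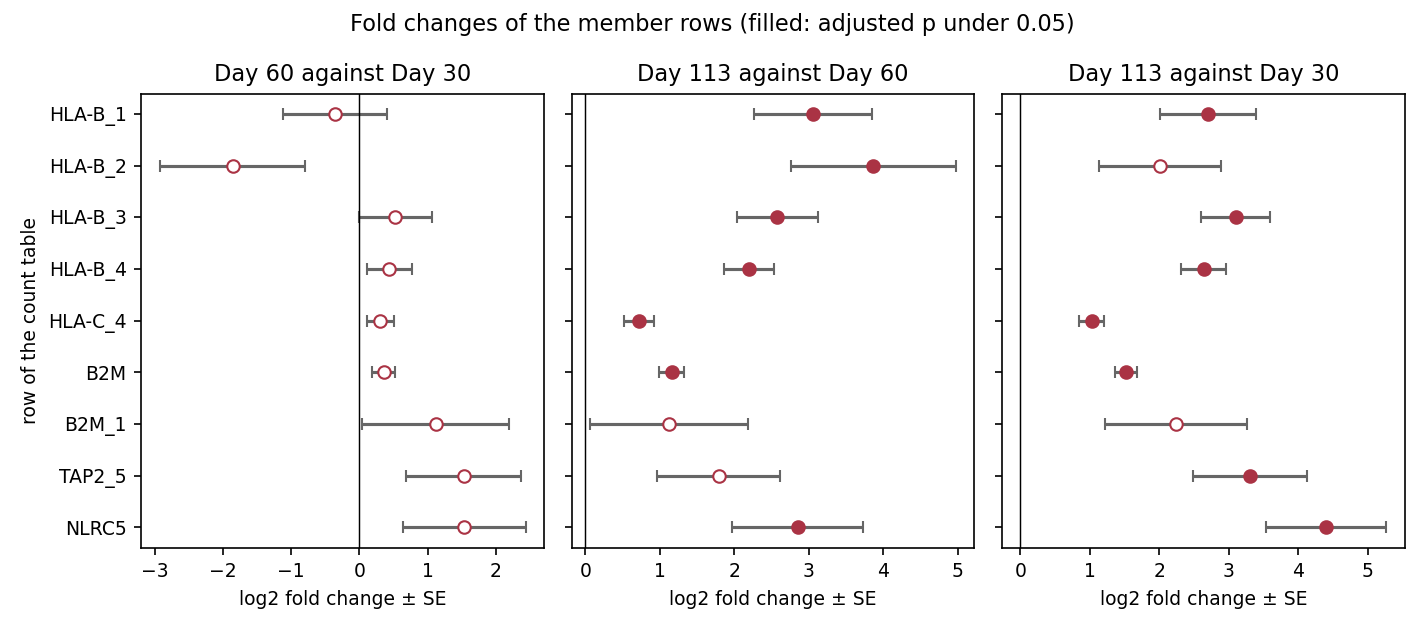
Log2 fold change ± SE (x axes) of the 9 rows that hold the members (y axis) in the 3 comparisons of days. Filled points passed an adjusted p of 0.05 and open points did not: 0, 7 and 7 rows are filled from left to right.

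Ratios within a library do not depend on scaling between libraries. The log2 ratio of HLA-B to B2M was -3.89 ± 0.15 at Day 30 (SD, n = 4), -4.00 ± 0.39 at Day 60 (n = 3) and -2.73 ± 0.49 at Day 113 (n = 4). All Day 113 wells, from -3.20 to -2.05, lay above all earlier wells, from -4.41 to -3.63. The difference was 1.16 against Day 30 and 1.28 against Day 60, each with a two-sided exact permutation p of 0.0286, the smallest these group sizes allow, and 0.0643 after adjustment over the 9 ratio tests made. The ratio of HLA-C to B2M was 0.50 ± 0.31 at Day 30, 0.45 ± 0.12 at Day 60 and 0.00 ± 0.24 at Day 113. Its difference was -0.50 from Day 30 to Day 113 (exact permutation p = 0.0571, adjusted 0.0857). Neither ratio passed the threshold after adjustment. With groups this small, passing needs most of the 9 tests at the smallest p, so a ratio could hardly pass whatever its difference. The ratio compares numbers of reads in rows, so its level says nothing about the number of molecules of each chain.

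TAP2, a subunit of the peptide transporter, was read at low depth, with 0 to 10 counts in each Day 30 well. Its CPM values were 0.191, 0.167, 0.00 and 0.344 in the Day 30 wells, 0.926, 0.221 and 0.379 in the Day 60 wells and 0.779, 2.59, 1.85 and 1.89 in the Day 113 wells. The well at 0 could hold up to 0.0987 CPM, the level of 3 counts in that library, and such limits cover counting error only. Day 113 lay above Day 30 in every well but overlapped Day 60, and TAP2 rose by 3.31 ± 0.82 log2 units from Day 30 (adjusted p = 0.0049). From Day 60 to Day 113 the log2 fold change was 1.79 ± 0.83 (adjusted p = 0.13), and from Day 30 to Day 60 it was 1.53 ± 0.84 (adjusted p = 0.31).

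Of 9 genes for peptide loading and trimming, 4 were higher at Day 113 than at Day 30 and none lower, with a median log2 fold change of 0.39. The largest change among these 9 was that of ERAP2, an aminopeptidase that trims peptides in the endoplasmic reticulum. It was measured at 9.40, 10.9, 19.4 and 8.90 CPM at Day 30, at 18.6, 30.8 and 28.0 at Day 60 and at 55.4, 43.7, 56.5 and 40.9 at Day 113. Day 30 well 3 reached into the Day 60 range, and Day 113 stood clear of both. ERAP2 rose by 1.09 ± 0.24 log2 units by Day 60 (adjusted p = 0.0084) and by 2.01 ± 0.23 by Day 113 (adjusted p = 7.0e-06). Its call from Day 60 to Day 113, a rise of 0.93 ± 0.24 (adjusted p = 0.011), was lost without Day 60 well 1 (adjusted p = 0.065). ERAP1, its partner enzyme, rose by 0.39 ± 0.10 from Day 30 to Day 113 (adjusted p = 0.0052).

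The chaperones of this list, those of the loading complex among them, changed by smaller amounts than ERAP2. Between Day 30 and Day 113 the general chaperone HSPA5 rose by 0.62 ± 0.11 log2 units (adjusted p = 5.6e-04) and calreticulin (CALR) by 0.32 ± 0.11 (adjusted p = 0.028), the latter lost without Day 30 well 1 or 4. Calnexin (CANX) had a log2 fold change of 0.10 ± 0.09 (adjusted p = 0.46). Tapasin (TAPBP), a chaperone of the complex matched through a numbered row, had one of 0.41 ± 0.68 (adjusted p = 0.69). The related TAPBPL had one of 0.58 ± 0.24 (adjusted p = 0.078). PDIA3, a disulphide isomerase of the complex, fell by 0.43 on the log2 scale to Day 60 (SE 0.13, adjusted p = 0.047) and rose by 0.49 ± 0.13 afterwards (adjusted p = 0.012), a rise lost without Day 60 well 1 (adjusted p = 0.062). The fall of PDIA3 was lost under 9 of 21 alternatives.

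PSMB8 and PSMB9 are immunoproteasome subunits that replace PSMB5 and PSMB6, and PSMB10 is their partner, which replaces PSMB7. Only the PSMB10 swap could be examined. PSMB10 was measured at 11, 10.9, 10.2 and 12.0 CPM in the Day 30 wells, at 18.9, 22.8 and 13.6 at Day 60 and at 18.1, 40.8, 26.6 and 26.6 at Day 113. Day 60 and Day 113 overlapped and both lay above Day 30. PSMB10 rose by 1.34 ± 0.21 log2 units from Day 30 to Day 113 (adjusted p = 1.5e-04). Its rise of 0.74 ± 0.22 by Day 60 (adjusted p = 0.047) was lost under 9 of 21 alternatives.

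The constitutive counterparts changed less. From Day 30 to Day 113, PSMB7 rose by 0.41 ± 0.11 log2 units (adjusted p = 0.0063), PSMB6 rose by 0.54 ± 0.15 (adjusted p = 0.010) and PSMB5 had a log2 fold change of 0.11 ± 0.11 (adjusted p = 0.45). Per kilobase of exon, PSMB10 stood at 5.95 ± 0.405 CPM at Day 30, 9.94 ± 2.49 at Day 60 and 15.1 ± 5.06 at Day 113, and PSMB7 at 27.1 ± 1.14, 23.9 ± 2.71 and 36.2 ± 4.65 (SD, n = 4, 3 and 4). The within-library log2 ratio of PSMB10 to PSMB7 was -2.14 ± 0.15 at Day 30, -1.24 ± 0.30 at Day 60 and -1.26 ± 0.30 at Day 113. It stood 0.90 higher at Day 60 and 0.88 higher at Day 113 than at Day 30 (exact permutation p = 0.0286 each, adjusted 0.0643), with no overlap of wells. From Day 60 to Day 113 it differed by -0.02 (exact permutation p = 0.914). Unlike the HLA-B ratio, its larger difference lay between Day 30 and Day 60, but whether the ratios differ in timing was not tested.

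**Figure D3:**
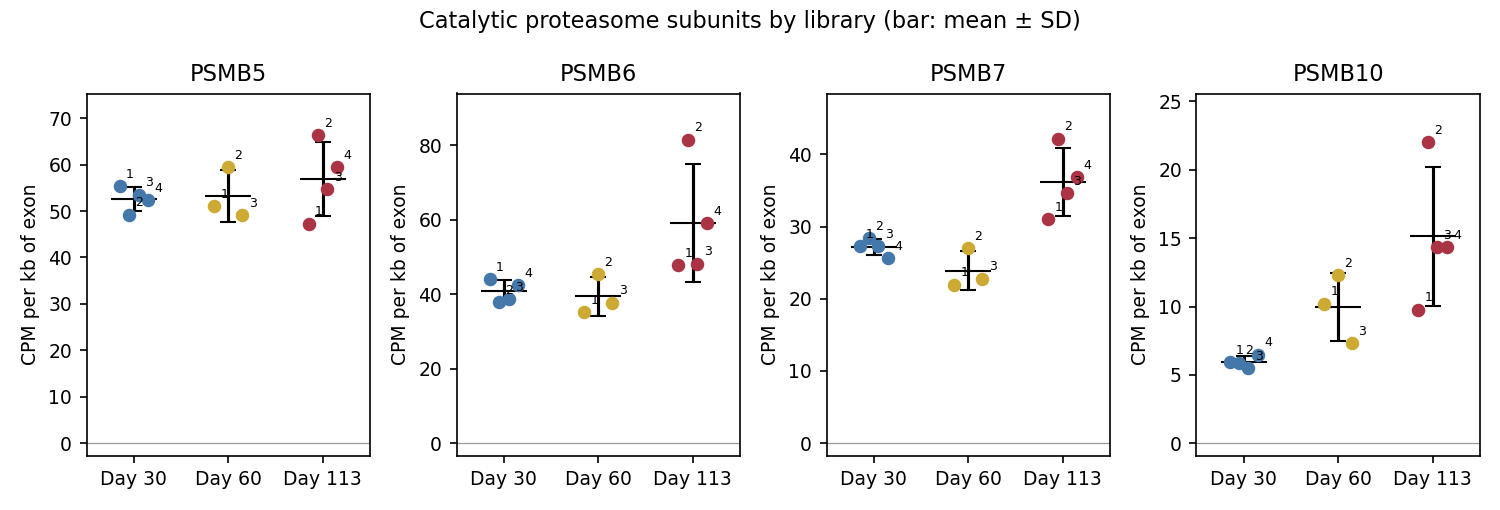
CPM per kilobase of exon (y axes, linear) of PSMB5, PSMB6 and PSMB7, the constitutive catalytic proteasome subunits, and of the inducible subunit PSMB10, by day (x axis). Points are wells with their numbers and bars are the mean ± SD. PSMB10 lies above its Day 30 range in every later well, and Day 113 well 2 is highest for all 4 genes.

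Of the 6 rows for inducible proteasome assembly and the PA28 and PA200 caps, 4 were higher at Day 113 than at Day 30. Besides PSMB10 these were the assembly factor POMP, which rose by 0.82 ± 0.12 log2 units (adjusted p = 5.2e-05), the PA28 subunit PSME2, which rose by 0.63 ± 0.13 (adjusted p = 0.0016), and PSME3, which rose by 0.34 ± 0.11 (adjusted p = 0.019) but not past the threshold without Day 30 well 1 or 4. PSME1, the partner of PSME2, had a log2 fold change of 0.29 ± 0.11 (adjusted p = 0.065). The constitutive 20S core changed in the same direction: 9 of its 13 measured subunits were higher at Day 113 than at Day 30 and 0 lower, with a median log2 fold change of 0.38.

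NLRC5, the activator of class I promoters, was close to the counting limit in the earlier wells. It had 0, 9, 14 and 1 counts in the Day 30 wells, 2, 17 and 35 in the Day 60 wells and 256, 62, 199 and 49 in the Day 113 wells. In CPM these are 0.00, 0.300, 0.461 and 0.0344, then 0.0638, 0.626 and 1.10, then 7.39, 2.32, 5.68 and 1.97. The well at 0 could hold up to 0.115 CPM. All Day 113 wells lay above all earlier wells, and Day 30 and Day 60 overlapped. NLRC5 rose by 4.40 ± 0.87 log2 units from Day 30 to Day 113 (adjusted p = 0.0010), a call kept under every alternative. Its rise of 2.85 ± 0.88 from Day 60 (adjusted p = 0.027) was lost without Day 60 well 1, Day 60 well 2, Day 113 well 1 or Day 113 well 3, with adjusted p from 0.063 to 0.085.

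Of 16 transcription factors that act on class I promoters, 5 were higher at Day 113 than at Day 30 and 0 lower, with a median log2 fold change of 0.06. IRF9, the DNA-binding part of the interferon-activated complex ISGF3, rose by 1.20 ± 0.16 log2 units (adjusted p = 3.8e-05). STAT2, another part of that complex, had a log2 fold change of -0.03 ± 0.11 (adjusted p = 0.88). IRF2, which binds interferon response elements, rose by 0.93 ± 0.12 (adjusted p = 2.4e-05) and the NF-kappaB subunit NFKB1 by 0.81 ± 0.12 (adjusted p = 9.0e-05). RFXANK, a subunit of the RFX complex, rose by 0.52 ± 0.17 (adjusted p = 0.028), a call lost without Day 30 well 2, 3 or 4 or without Day 113 well 2. CREB1, which binds cyclic AMP response elements, was also called higher. RFX5, the RFX subunit that binds DNA, fell by 0.71 on the log2 scale from Day 30 to Day 60 (SE 0.13, adjusted p = 0.0027) and then rose by 0.43 ± 0.13 (adjusted p = 0.024), a rise lost under 5 of 21 alternatives. IRF1, an interferon-induced activator of class I genes, had a log2 fold change of -0.11 ± 0.22 from Day 30 to Day 113 (adjusted p = 0.74), and the class II activator CIITA one of 0.65 ± 0.38 (adjusted p = 0.20).

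Genes upstream of the pathway were examined as lists. Of 13 interferon receptor and signalling genes, 4 were higher and 2 lower at Day 113 than at Day 30, with a median log2 fold change of 0.07. Over all genes, 17.3% were called higher and 17.2% lower by edgeR. The receptor chains IFNAR2 and IFNGR2 and the kinases JAK1 and TYK2 were not called (adjusted p = 0.70, 0.34, 0.19 and 0.98). The receptor chains IFNGR1 and IFNAR1 rose by 0.59 ± 0.12 (adjusted p = 0.0014) and 0.42 ± 0.10 log2 units (adjusted p = 0.0040), and the kinase JAK2 rose by 0.81 ± 0.19 (adjusted p = 0.0031). USP18, a feedback inhibitor of type I interferon signalling, rose by 1.75 ± 0.55 (adjusted p = 0.021), a call lost without Day 30 well 1 or 4 or without Day 113 well 2 or 3. SOCS3, a feedback inhibitor of cytokine signalling, fell by 1.10 on the log2 scale (SE 0.21, adjusted p = 6.1e-04), and the lambda interferon receptor chain IFNLR1 fell by 0.85 (SE 0.21, adjusted p = 0.0048). Interferon ligands were not analysed here.

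Of 9 nucleic acid sensor genes, 6 were higher and 1 lower at Day 113 than at Day 30. IFIH1, the double-stranded RNA sensor MDA5, was measured at 1.27 to 1.71 CPM at Day 30, 2.43 to 4.16 at Day 60 and 11.3 to 14.9 at Day 113, with no overlap. It rose by 3.11 ± 0.23 log2 units from Day 30 to Day 113 (adjusted p = 9.5e-08). TLR3, an endosomal RNA sensor, rose by 2.01 ± 0.20 (adjusted p = 2.2e-06), the cytosolic RNA sensor DDX58 by 0.91 ± 0.15 (adjusted p = 2.5e-04) and the DNA-sensing adaptor TMEM173 by 0.79 ± 0.11 (adjusted p = 6.1e-05). The sensor called lower was AIM2, named after its values were seen, at 0.306 to 1.13 CPM at Day 30 and 0.00 to 0.144 at Day 113 (adjusted p = 0.040), a call lost under 4 of 16 alternatives, those without Day 113 well 2, 3 or 4 among them.

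Of 31 interferon-stimulated genes listed, 23 were measured, in 24 rows. Of these 24 rows, 18 were higher at Day 113 than at Day 30 and 0 lower, with a median log2 fold change of 1.85. IFI44L, OAS1, OAS2 and XAF1 had 0 counts in every Day 30 well, so any call of theirs could only be higher. The median is the same with the 5 genes at or under 3 counts in every Day 30 well set to their lower bounds. IFI44 was at least 94.9-fold higher at Day 113, and the RNA-sensing enzyme OAS1 at least 26.4-fold higher, both against 3 counts per library. IFIT2, which binds viral RNA, rose by 4.05 ± 0.43 log2 units (adjusted p = 3.9e-06), and the antiviral GTPase MX1 by 4.58 ± 0.76 (adjusted p = 2.3e-04). The summed level of the 24 rows was 385 to 448 CPM at Day 30, 355 to 447 at Day 60, and 638, 974, 1010 and 504 in Day 113 wells 1 to 4. Wells 2 and 3 of Day 113, highest in this sum, were also highest in B2M and HLA-C, and well 4 was lowest in each of them. Well 4 also had the lowest Day 113 sum in every cell type marker list and in the sensor, transcription factor and class I-like lists. It did not in the peptide loading, proteasome, interferon receptor and class II lists.

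**Figure D4:**
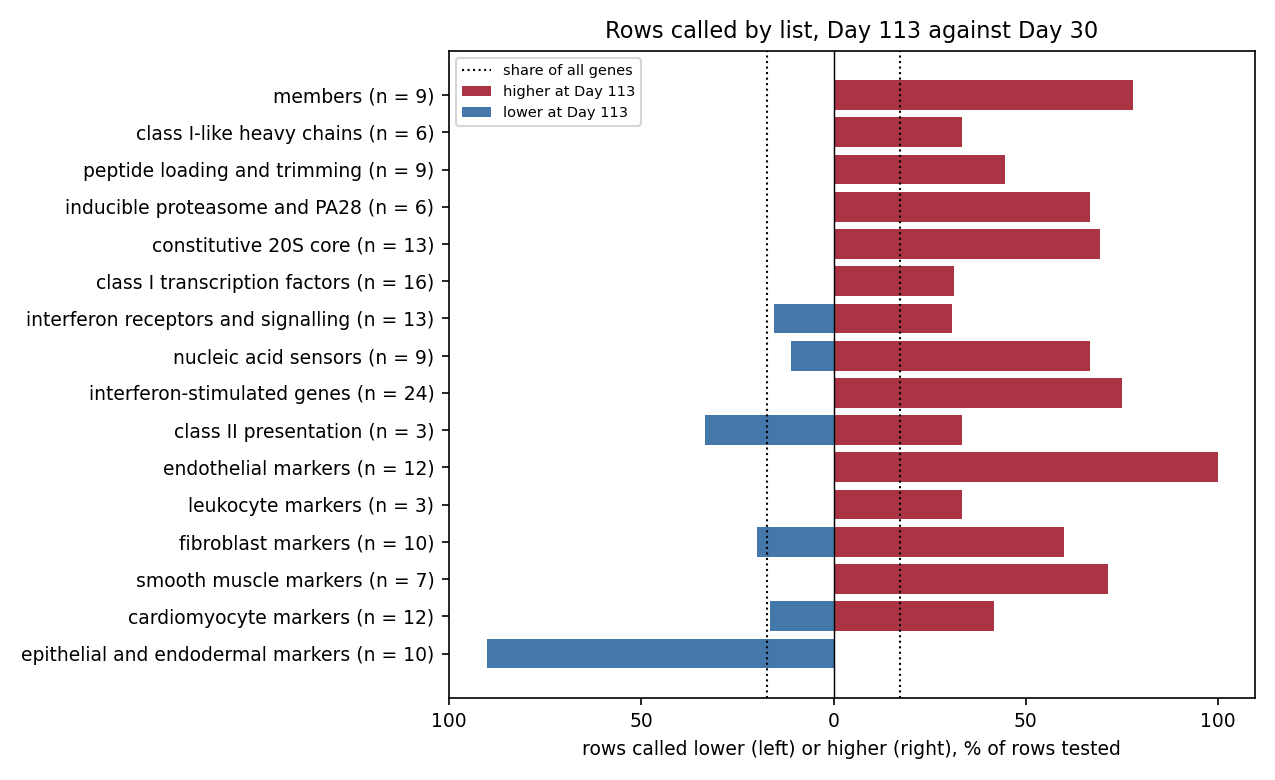
Share of the measured rows of each list (y axis, with the number of rows) called higher (red, right) or lower (blue, left) at Day 113 than at Day 30, in percent (x axis). Dotted lines mark the shares over all 19990 genes, 17.3% higher and 17.2% lower. The 7 of 9 member rows lie beside 18 of 24 interferon-stimulated rows and 12 of 12 endothelial markers. They also lie beside 5 of 7 smooth muscle markers, 9 of 13 constitutive 20S subunits, 6 of 9 sensors and 4 of 6 inducible proteasome rows. The members and lists were chosen with earlier results of these data known, so the shares are a description and no independent test.

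Of the 3 class II presentation genes measured, 1 was higher and 1 lower at Day 113 than at Day 30. CD74, the class II invariant chain, fell by 1.57 on the log2 scale from Day 30 to Day 113 (SE 0.25, adjusted p = 1.9e-04), from 4.95 to 7.73 CPM down to 1.85 to 2.44 CPM. CTSS, the protease that degrades it, rose by 2.58 ± 0.90 (adjusted p = 0.035), a call lost under 6 of 20 alternatives.

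Markers of other cell types were examined beside the members. All 12 endothelial markers were higher at Day 113 than at both earlier days, with a summed level of 82.8 to 125 CPM at Day 30, 52.5 to 86.7 at Day 60, and 976, 442, 487 and 261 in Day 113 wells 1 to 4. PECAM1, an adhesion molecule of endothelial cells, rose by 3.52 ± 0.34 log2 units from Day 30 (adjusted p = 1.5e-06). The endothelial sum was highest in Day 113 well 1, where NLRC5 and summed HLA-B were also highest but B2M and HLA-C were lower than in wells 2 and 3, and it was lowest in well 4, where those 4 genes were lowest. Of the 12 endothelial markers, only CLEC14A was at 0 in any well, with 0 counts in Day 60 well 3, against 4 to 16 counts at Day 30 and 77 to 468 at Day 113. Of 12 leukocyte markers listed, 3 were measured, and 1 of these was higher at Day 113 than at Day 30, with a median log2 fold change of 0.02 over the 3. CSF1R, a macrophage growth factor receptor, had a log2 fold change of -0.91 (adjusted p = 0.39), and CD68, a macrophage lysosomal protein, one of 0.02 (adjusted p = 0.97). LAPTM5, a lysosomal protein of blood cells, rose by 1.30 ± 0.39 (adjusted p = 0.018), a call lost without Day 30 well 4 or Day 113 well 1. The summed level of the 3 was 3.19 to 7.08 CPM at Day 30, 2.21 to 2.55 at Day 60 and 4.81 to 11.3 at Day 113. Of 10 fibroblast markers, 6 were higher and 2 lower, with a sum of 3360 to 7710 CPM at Day 30, 2070 to 3580 at Day 60 and 5460 to 13100 at Day 113. Of 7 smooth muscle markers, 5 were higher and 0 lower, with a sum of 714 to 977 CPM at Day 30, 854 to 1090 at Day 60 and 1040 to 1580 at Day 113. Of 10 epithelial and endodermal markers, 9 were lower, with a sum of 2430 to 3840 CPM at Day 30, 1300 to 1490 at Day 60 and 1180 to 1970 at Day 113. The part of these cell types in the change of the members was not tested.

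**Figure D5:**
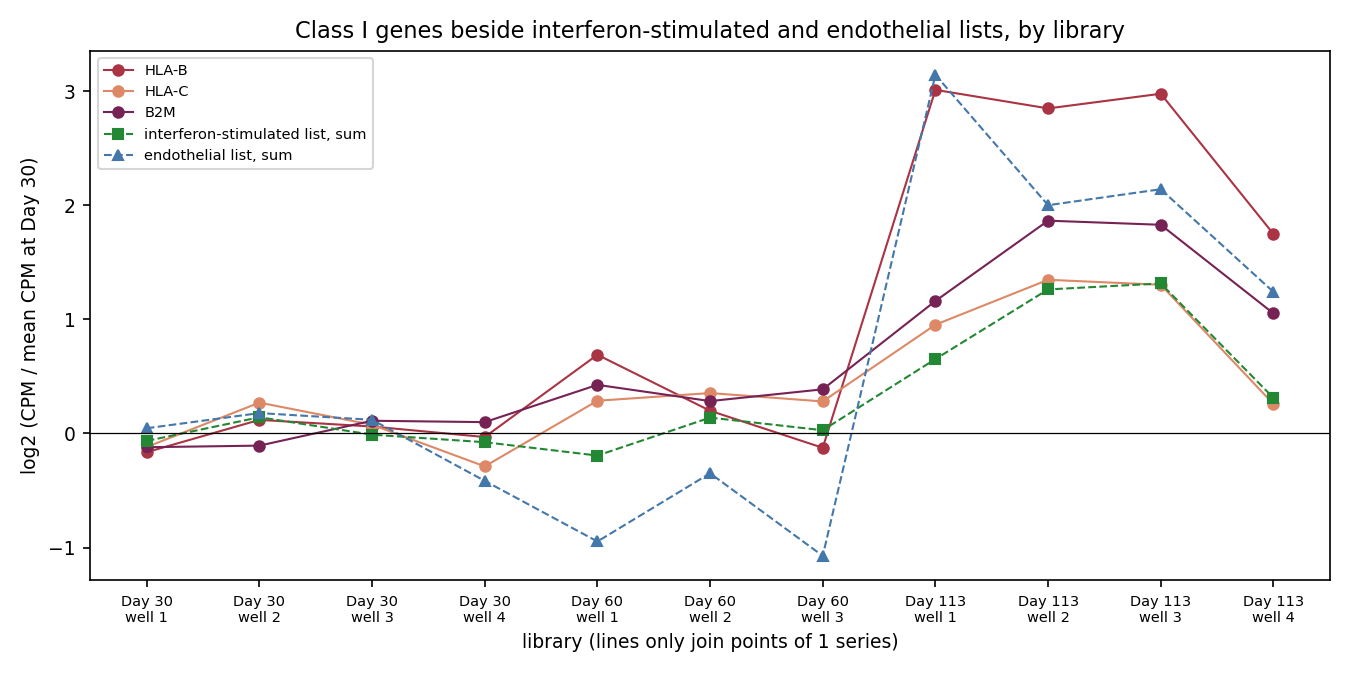
Log2 of CPM over the mean CPM of the Day 30 wells (y axis) in each of the 11 libraries (x axis) for HLA-B, HLA-C and B2M and for the summed interferon-stimulated and endothelial lists. At Day 113 all 5 series are lowest in well 4, while the endothelial sum, at 976 CPM, peaks in well 1 and B2M, at 201 CPM, in well 2. Well 4 also had the lowest Day 113 sum in several lists that are not drawn.

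The 4 Day 113 wells were unequal for every member. Well 4 was the lowest Day 113 well for 4 of the 5 members, and well 1 for TAP2. The highest well was 1.76 times the lowest for B2M, 2.13 times for HLA-C, 2.41 times for HLA-B, 3.32 times for TAP2 and 3.76 times for NLRC5. Without Day 113 well 4, the same number of member rows, 7 of 9, was called higher than at Day 30.

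The genes outside the lists whose pattern over the 11 libraries was most like that of the members were found by Pearson's r between their log2 CPM and the mean standardised log2 CPM of the members, among 11826 candidates, with other HLA genes left out. They were IGFBP4 (r = 0.990), CRABP2 (r = 0.980), ACOX2 (r = 0.978), CERK (r = 0.973) and GNG11 (r = 0.972). These r values describe 11 libraries that share 3 days and carry no test. IGFBP4, an IGF-binding protein, was measured at 121 to 154 CPM at Day 30, 207 to 219 at Day 60 and 349 to 640 at Day 113, with well 4 lowest at Day 113. CRABP2, a retinoic acid carrier, was measured at 201 to 302, 263 to 286 and 531 to 853 CPM, with well 4 lowest at Day 113. Both genes were picked for likeness to the members, whose mean is lowest there among Day 113 wells, so the low well 4 is no separate observation.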

How the data were processed

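Poly(A) RNA of 11 wells was sequenced, per the labels' protocols. The authors deposited whole-number read counts per gene symbol, with no normalization, and a TPM table of the same rows. Per the submitters' processing notes, the tools include STAR 2.5.3a and featureCounts 2.0.3 with the hg38 build. The annotation, the use of strand and the handling of reads with several matches are not given in the sources used here. Count divided by the deposited TPM, which should be the same gene length in each library, differed between libraries by a median of 73.8-fold over 12309 genes, so no comparison uses TPM.

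Counts were tested with edgeR 4.0.16 in R 4.3.3 (quasi-likelihood F-test, TMM scaling, all 11 libraries, day as the only factor). A minimum count of 10 (filterByExpr) removed 0 genes. P-values were adjusted by Benjamini-Hochberg over 19990 genes, with a threshold of 0.05, and the difference between the intervals was tested as a further contrast. SEs were computed as |log2 fold change| over the root of the F statistic. CPM values use TMM-scaled library sizes. Symbols were matched after removal of a trailing number. Within-library ratios (pseudocount 0.5) were compared by exact permutation in scipy 1.17.1; 3 of the 6 ratios intended could not be computed, which leaves 9 tests. The edgeR script was tested on simulated data.

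Alternatives were other scalings and filters, limma-voom 3.58.1, DESeq2 1.42.0, a replicate block and leaving out each well. The members and lists were chosen with earlier results of these data known. Genes named from each list were those of largest change from Day 30 to Day 113 with an adjusted p under 0.05 and at least 1 CPM, at most 6 a list, or those whose role a sentence describes; for the nearest patterns, the 5 genes with the highest r at a mean of at least 5 CPM. Exon lengths are from GENCODE v29, and positions and promoters from RefSeq (GRCh38.p14). Some items are not reported here.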

Additional observations from a re-analysis of the deposited data

Results flagged for a closer look

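Some genes changed differently after Day 60 than before it, by the edgeR test of that difference itself (adjusted p under 0.05, log2 units, change from Day 60 to Day 113 minus change from Day 30 to Day 60). Among the members this held for HLA-B with its rows summed, at 2.14, but for 0 of the 9 member rows taken separately. In the presentation pathway it held for PDIA3 at 0.91, PSMB7 at 0.78 and PSME3 at 0.74. Among the regulators it held for RFX5 at 1.14 and NFKB1 at 1.02. USP18 stood at 3.99, a call lost under 8 of 20 alternatives. MX1 stood at 11.9, a fitted value that depends on the prior count because the Day 60 wells held at most 1 count, and that is no bound. It held also for the endothelial marker PECAM1 at 4.69, the leukocyte marker LAPTM5 at 3.36 and CRABP2 at 1.13. Over all genes, 4.97% were called higher and 4.38% lower for this difference. Among those lower were 2 of 12 cardiomyocyte markers and 2 of 7 smooth muscle markers. The call was lost without Day 60 well 1 or 3 for PDIA3, PSMB7 and PSME3, without Day 60 well 3 for RFX5, and without any 1 of the Day 60 wells for NFKB1, LAPTM5 and CRABP2. It was also lost with upper-quartile scaling and without Day 30 well 2 for PSMB7 and PSME3, without Day 30 well 3 for PSME3, and with limma-voom for LAPTM5. That of MX1 was lost with limma-voom (adjusted p = 0.34), and that of PECAM1 held under every alternative tried. The HLA-B sum was not refitted with wells left out.

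In 118 groups of 4 wells examined, 3 held a well far from the others by Dixon's test, where chance flags about 1 group in 20. They were the lowest Day 30 well of PSME1, at 123 CPM, the lowest Day 30 well of SOCS3, at 29.9 CPM, and the highest Day 30 well of IFI44, at 0.0329 CPM, which is 1 count.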

How the results depend on the processing

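No result changed direction with a call under any alternative: of 236 results for single rows, 114 passed the threshold, 76 of these passed under every other scaling, filter, test and left-out well, and 38 were lost under at least 1. Of the rest, 18 passed under at least 1 alternative. The count of member rows called higher from Day 30 to Day 113 was 7 without any single well. From Day 60 to Day 113 it ran from 4 to 7 with 1 well left out. It was 4 without Day 60 well 1, where all genes called fell from 4790 to 3317. For the difference between the intervals the count of member rows ran from 0 to 2. It was 1 without Day 30 well 1 or Day 60 well 1, and 2 without Day 113 well 4. Fitting only the 2 days compared gave 1 member row from Day 30 to Day 60, and DESeq2 gave 2 for the intervals. With an adjusted p under 0.01, member rows called from Day 60 to Day 113 fell to 3, and all genes called were 937 in place of 2060 from Day 30 to Day 60, 2545 in place of 4790 from Day 60 to Day 113, 4552 in place of 6889 from Day 30 to Day 113 and 618 in place of 1868 for the intervals. With 1 well left out, the count of all genes ran from 1220 to 2618 from Day 30 to Day 60 (1323 without Day 30 well 2, 1259 without Day 60 well 1, 1220 without Day 60 well 3) and from 643 to 2221 for the intervals (643 without Day 60 well 1, 774 without Day 60 well 3). Of genes called for the intervals, 53.2% were higher, and 40.2% with upper-quartile scaling. The causes of these shifts were not tested. Whether well numbers pair the samples was not settled, and the main fit treats the wells as unpaired. Over 10 same-numbered pairs of wells on different days the correlation of deviations was low but always positive, at 0.023 to 0.076. Pairs with different numbers ran from -0.078 to 0.069, and 9 of 11 libraries correlated best with their own number. A replicate block gave 2474, 4954, 7143 and 2366 genes in the 4 contrasts and 1 member row, HLA-B_4, for the intervals. Depth limits NLRC5, TAP2 and the smaller HLA-B rows, where 3 counts are 0.0856 to 0.120 CPM.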
